A study of Rattus norvegicus with 12 samples.

Results

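Itgal encodes the alpha L chain (CD11a) of the integrin LFA-1, and it was followed here in the rat liver together with its partner chain Itgb2, the related alpha chains Itgam and Itgax, and the ligand genes Icam1 and Icam2. These 6 genes were chosen by the measured gap in Itgal UMI counts between DA and LEW cells, so the strain levels of Itgal are given as a description, with no test, and the tests are kept for its partner and its ligands. Of the 6 genes, 5 were found by name among the 32883 gene rows, and Itgam was not analysed here.

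Beta2 integrins are adhesion receptors of leukocytes. The beta chain Itgb2 (CD18) reaches the cell surface only in a pair with an alpha chain, which is Itgal in LFA-1, Itgam in Mac-1, Itgax in CD11c/CD18 or Itgad in a further receptor. LFA-1 binds ICAM1 and ICAM2 on endothelium and other cells, and in the liver this contact helps to hold lymphocytes and myeloid cells in the sinusoids. Kupffer cells are the resident macrophages of the sinusoids. They express Itgb2, whereas hepatocytes are not known as a source of it.

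The samples came from livers of healthy male Dark Agouti (DA) and Lewis (LEW) rats, inbred strains with no treatment or transgene. Total liver homogenate (TLH) cells were profiled from 2 DA and 2 LEW rats, nuclei of snap-frozen liver from 2 libraries of each strain, and immune-enriched cells, which were washed further and depleted of red blood cells, from 1 rat of each strain. Visium sections of 2 Wistar livers completed the set of 12 libraries. The TLH libraries were made with version 2 of the 10x 3′ kit, and the nuclei and immune-enriched libraries with version 3. The labels give an age of 8 to 10 weeks and the study text a greater age. The file names give 10 weeks for the TLH DA rats and 13 weeks for the TLH LEW rats, so age and strain cannot be told apart in TLH. For the immune-enriched rats of both strains the file names give 9 weeks. All values are counts of unique molecular identifiers (UMIs), where 1 UMI stands for 1 captured transcript. A level in CPM is the number of UMIs of a gene per 1000000 UMIs of all genes in that cell class of a library. The kits read the 3′ end of each transcript, so no length scaling was applied, and CPM of different genes were compared only as strain contrasts.

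After filtering, 3844 to 7112 TLH cells, 2205 to 5262 nuclei and 1163 to 2677 immune-enriched cells were kept per library, with a median of 1542 to 5581 UMIs each. Cell classes were named from marker lists, with the members left out of the clustering, so that a difference in Itgal could not shape a class. Kupffer-like cells numbered 518 and 635 in the 2 DA and 333 and 356 in the 2 LEW TLH libraries, and their leading genes were Marco, C1qa, C1qc, Cd5l and Vsig4. The Kupffer marker list was higher in the LEW Kupffer-like cells of TLH, with a summed level of 38318 and 38850 CPM in LEW against 19326 and 22058 CPM in DA. Of 11 T-cell markers, 1 to 3 had a UMI there, with a summed level of 5.44 to 11.1 CPM and with Cd3d, Cd3g and Cd5 at 0 in all 4 libraries. Of 13 NK-cell markers, 6 to 11 had a UMI, with a summed level of 44.8 to 126 CPM in DA and of 19.6 to 23 CPM in LEW. Free hepatocyte RNA was present in the TLH and nuclei libraries: hepatocyte markers summed to 71241 to 95425 CPM in the TLH Kupffer-like cells. The strain tests rest on 2 rats per strain and the tests between platforms on 4 libraries per platform, and cells were never counted as replicates.

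Itgal was present in LEW and close to absent in DA in the Kupffer-like, Lyz2 myeloid-like, NK-like and T-like classes of the TLH cells. In Kupffer-like cells there were 0 and 2 Itgal UMIs in DA1 and DA2, and 191 and 147 in LEW1 and LEW2. Scaled to the class, Itgal was at 0 and 1.01 CPM in DA and at 163 and 130 CPM in LEW, which is a ratio of 226 in the pooled CPM, with a counting interval of 62.2 to 1877. In Lyz2 myeloid-like cells, which hold monocytes and dendritic cells, both DA libraries were at 0, and the LEW libraries were at 115 and 48.1 CPM. In NK-like cells both DA libraries were again at 0, and LEW was at 74.5 and 39.1 CPM. The pooled Itgal level of LEW was at least 16.8-fold higher than in DA for Lyz2 myeloid-like cells and at least 10.8-fold higher for NK-like cells, with a floor of 3 UMIs over both DA libraries. The T-like class was small, with 18 to 53 cells per library, and gave 0 Itgal UMIs in both DA libraries and 4 in each LEW library. The 2 strains did not overlap in any of these classes. These are RNA counts and not protein. By flow cytometry, the study saw no strain difference in the frequency of ITGAL-positive myeloid cells, which is a share of cells and not a level of ITGAL. After stimulation with LPS, it found the strain difference in TNFα mainly within the ITGAL-positive cells. Its mixed model over nuclei also named Itgal among the myeloid genes that differed most between the strains. Whether reads of both strains were counted equally well at Itgal was not tested. Outside the named classes, a cluster led by genes such as Siglech and Irf8 held 0 Itgal UMIs in both DA libraries and 2 and 4 in LEW, and a cluster led by genes such as Ighm and Cd79b held 0 in all 4 libraries, beside 0 to 2 Itgb2 UMIs.

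**Figure D1:**
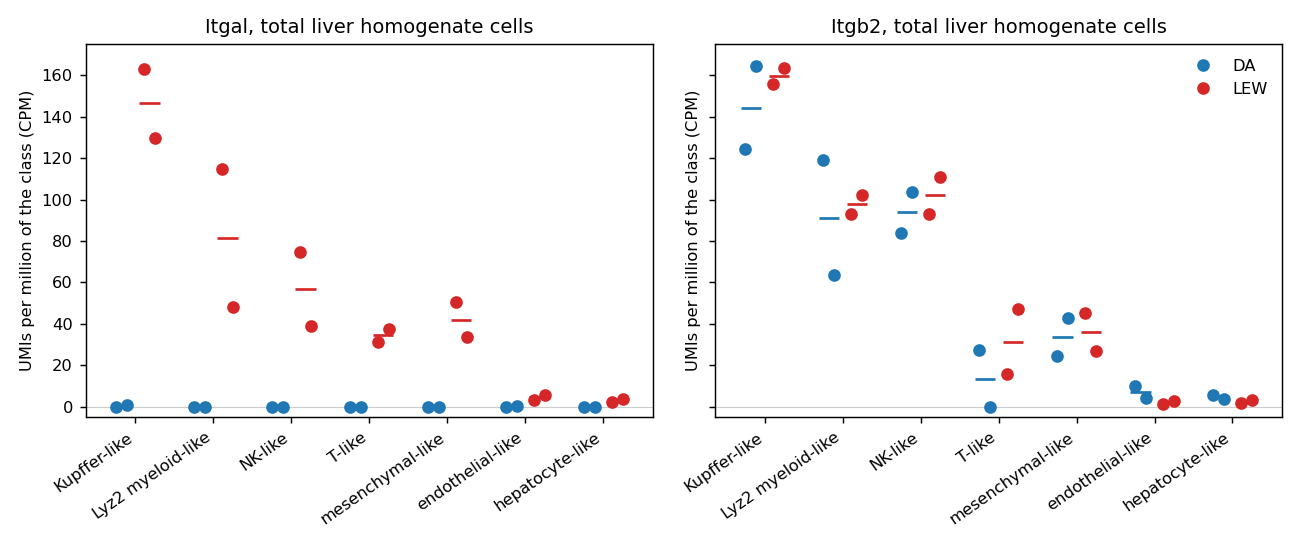
Itgal (left) and Itgb2 (right) in total liver homogenate cells, as UMIs per 1000000 UMIs of the class (CPM, vertical axis) for each named cell class (horizontal axis). Each point is 1 library, DA in blue and LEW in red, and the bar is the mean of the 2 libraries. Itgal reaches 163 CPM in LEW Kupffer-like cells and at most 1.01 CPM in DA, whereas the Itgb2 points of both strains overlap in Kupffer-like, Lyz2 myeloid-like and NK-like cells.

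Within LEW, Itgal was ordered from Kupffer-like cells (130 and 163 CPM) through Lyz2 myeloid-like (48.1 and 115 CPM), NK-like (39.1 and 74.5 CPM), mesenchymal-like (33.6 and 50.6 CPM) and T-like cells (31.5 and 37.7 CPM) down to endothelial-like (3.19 and 5.86 CPM) and hepatocyte-like cells (2.24 and 3.77 CPM). These are TLH levels, and there Kupffer-like cells lay above the range of every other class. In the immune-enriched LEW library, Lyz2 myeloid-like cells were higher than Kupffer-like cells, at 489 against 343 CPM. In LEW nuclei the small Lyz2 myeloid-like class was at a pooled 533 CPM, from 29 UMIs, against 111 CPM in Kupffer-like nuclei. No weight was put on this, since the LEW1 nuclei of that small class carried B-cell markers. Lyz2 myeloid-like cells overlapped with NK-like and with mesenchymal-like cells, and NK-like with mesenchymal-like cells. Mesenchymal-like and T-like cells also overlapped, as did endothelial-like and hepatocyte-like cells. The mesenchymal-like class, named for collagen genes such as Col3a1, held leukocyte RNA as well. The smaller of its 2 clusters had a UMI of the leukocyte gene Ptprc in 15.7% of cells, and that cluster carried 18 of the 19 Itgal UMIs of the class in LEW1. The part of leukocytes in this Itgal level was not tested further.

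Both Kupffer-like clusters of the TLH map showed the Itgal gap. The larger, led by Ccl6, C1qc and Marco, had Itgal at 0 and 1.56 CPM in DA and at 187 and 146 CPM in LEW. The smaller, led by Slfn4, Marco and Clec4f, had 0 Itgal UMIs in either DA library and 99.7 and 83.9 CPM in LEW.

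Counted by cells, 137 of 333 LEW1 (41.1%, exact binomial interval 35.8 to 46.6%) and 105 of 356 LEW2 Kupffer-like cells (29.5%, 24.8 to 34.5%) held an Itgal UMI. In DA this was 2 of 635 cells (0.315%, exact binomial interval 0.0382 to 1.13%) in DA2 and 0 of 518 cells in DA1, where the exact interval reaches 0.71% and the floor of 3 counts allows up to 0.579% of cells with a UMI. Hepatocyte-like cells, which should lack the gene and show what free RNA contributes, held an Itgal UMI in 0.572% and 0.902% of LEW cells and in 0.0228% and 0.0222% of DA cells. Their median depth was 2267 to 2457 UMIs in LEW against 3061 to 3411 UMIs in LEW Kupffer-like cells. With each cell thinned to 1000 UMIs, 12.9% and 11.5% of LEW Kupffer-like cells kept an Itgal UMI, against 0% and 0.157% in DA. The thinned share in LEW hepatocyte-like cells was 0.0953% and 0.174%. Itgal in LEW Kupffer-like cells thus stood far above the level in hepatocyte-like cells, and in DA Kupffer-like cells it did not exceed what a few UMIs can show.

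The partner chain Itgb2 did not show the gap of Itgal in Kupffer-like, Lyz2 myeloid-like and NK-like TLH cells. In TLH Kupffer-like cells, Itgb2 was at 124 and 164 CPM in DA and at 156 and 163 CPM in LEW, so that both LEW libraries lay inside the DA range. The log2 difference of LEW from DA was 0.11 ± 0.18 (SE, n = 2 rats per strain; edgeR quasi-likelihood test, Benjamini-Hochberg adjusted p = 0.802), with a 95% interval of −0.27 to 0.49. In Lyz2 myeloid-like cells, Itgb2 was at 119 and 63.4 CPM in DA and at 93 and 102 CPM in LEW, a log2 difference of 0.10 (interval −0.75 to 0.94, edgeR adjusted p = 0.949). In NK-like cells it was at 84.1 and 104 CPM in DA and at 93.1 and 111 CPM in LEW, a log2 difference of 0.02 (interval −0.66 to 0.71, edgeR adjusted p = 0.994). The strains overlapped in all 3 classes. The interval in Kupffer-like cells excludes a difference larger than 0.49 in log2, while the intervals of the other 2 classes are wider. The Kupffer marker list was higher in LEW in the same Kupffer-like cells, with the sums given above, and its part in the Itgb2 level was not tested. At far lower levels, Itgb2 was below the DA libraries in both LEW libraries in TLH hepatocyte-like and endothelial-like cells. In hepatocyte-like cells it was at 5.95 and 3.80 CPM in DA and at 1.87 and 3.19 CPM in LEW, a log2 difference of −0.94 (interval −1.80 to −0.08) that missed the threshold (edgeR adjusted p = 0.206). In endothelial-like cells it was at 9.88 and 4.50 CPM in DA and at 1.60 and 2.93 CPM in LEW, from 27 and 4 UMIs, too few for the test.

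Across the 8 strain comparisons, 19 tests of Itgb2, Icam1 and Icam2 could be made, and 1 passed an adjusted p of 0.05, which was Icam2 in TLH endothelial-like cells. At an unadjusted p under 0.05 the number was 6, beside 10.1 to 21.7% of all genes in the 8 comparisons, and DESeq2 called 0. The share of all genes that passed was 7.34% in Kupffer-like, 2.81% in Lyz2 myeloid-like, 2.19% in NK-like, 2.97% in endothelial-like and 3.82% in hepatocyte-like TLH cells, and 1.48% in Kupffer-like, 0.502% in endothelial-like and 1.67% in hepatocyte-like nuclei. Itgax had too few UMIs for a strain test within any class. It entered 3 tests of the strain effect between classes or platforms, with log2 intervals of −3.09 to 3.91 (NK-like against Kupffer-like cells), −4.29 to 1.69 (Lyz2 myeloid-like against Kupffer-like cells) and −3.39 to 3.74 (Kupffer-like nuclei against cells), too wide to show a direction.

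**Figure D2:**
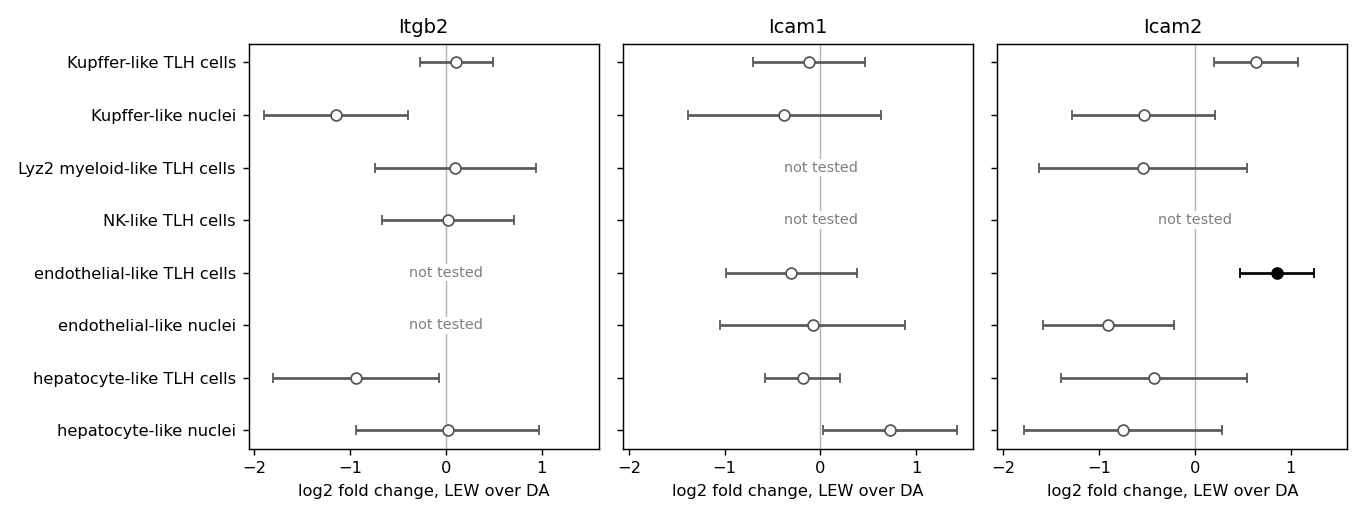
Difference between LEW and DA in Itgb2, Icam1 and Icam2 (panels) for each cell class and platform (vertical axis), as log2 fold change of LEW over DA (horizontal axis) with its 95% interval from edgeR. The filled point has an adjusted p under 0.05 and open points do not. The filled one is Icam2 in endothelial-like TLH cells at 0.86, and Itgb2 lies at 0.11 in Kupffer-like TLH cells and at −1.15 in Kupffer-like nuclei.

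The strain effect on Itgb2 was also compared between classes. It differed from that in Kupffer-like cells by −0.14 in log2 (interval −0.80 to 0.52, edgeR adjusted p = 0.989) in NK-like cells and by 0.02 (interval −0.68 to 0.73, adjusted p = 0.997) in Lyz2 myeloid-like cells. Among all genes, 0.294% and 0.377% passed in these 2 tests, and 0 of 4 members did in each. At an unadjusted p under 0.05, the first had 0 members and the second 1, Icam2, beside 6.5% and 7.19% of all genes, and DESeq2 called 0.

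Itgax and Itgad, the other beta2 alpha chains measured, were sparse, whereas the level and strain difference of Itgam are not known here. Itgax (CD11c) was highest in Lyz2 myeloid-like and NK-like cells: in the former it was at 20.5 and 22.1 CPM in DA and at 5.47 and 18 CPM in LEW, from 1 to 8 UMIs per library. These levels did not overlap, and the pooled ratio of LEW to DA was 0.534 with a counting interval of 0.127 to 1.73. In NK-like cells Itgax was at 3.65 and 19.9 CPM in DA and at 37.3 and 6.52 CPM in LEW, where the strains overlapped. Kupffer-like cells held only 2 or 3 Itgax UMIs per library in either strain. Itgad, which belongs to the wider list of pathway genes and not to the chosen members, had its highest TLH level in a DA library at 21.9 CPM and in a LEW library at 44.7 CPM, both in NK-like cells. Itgax and Itgad are neighbouring, related genes, so the division of reads between them is uncertain. Neither showed a library at 0 in DA beside a high level in LEW in NK-like or Lyz2 myeloid-like cells, as Itgal did.

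The number of Itgal UMIs per 100 Itgb2 UMIs puts the strain gap free of class size and depth, although not free of how well each transcript is captured. In TLH Kupffer-like cells it was 0 and 0.613 in DA and 104 and 79.5 in LEW. Lyz2 myeloid-like cells had 0 in both DA libraries and 124 and 47.1 in LEW, and NK-like cells 0 in both DA libraries and 80 and 35.3 in LEW. The corresponding number for Itgax in Lyz2 myeloid-like cells was 17.2 and 34.8 in DA and 5.88 and 17.6 in LEW, with overlap between the strains. Before any filter on barcodes, TLH held 6 and 12 Itgal UMIs beside 616 and 896 Itgb2 UMIs in DA, and 573 and 589 beside 502 and 594 in LEW.

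**Figure D3:**
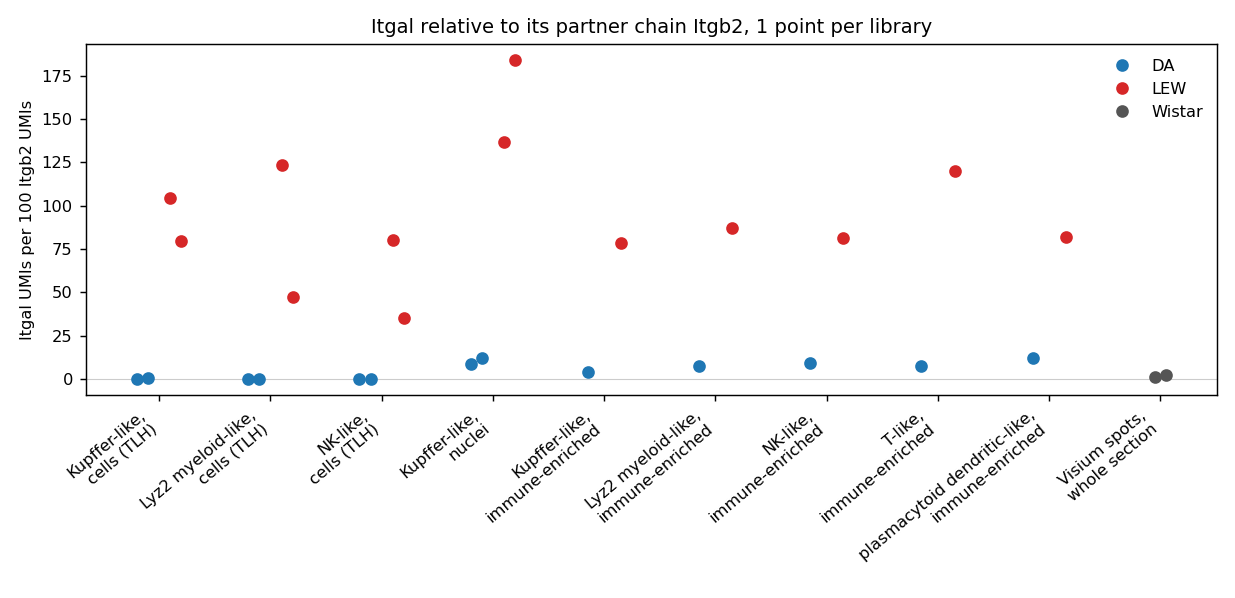
Itgal UMIs per 100 Itgb2 UMIs (vertical axis) by cell class and platform (horizontal axis), with 1 point per library and colours for DA, LEW and Wistar. The classes shown are Kupffer-like, Lyz2 myeloid-like and NK-like TLH cells, Kupffer-like nuclei, and Kupffer-like, Lyz2 myeloid-like, NK-like, T-like and plasmacytoid dendritic-like immune-enriched cells. In these, LEW points lie between 35.3 and 184, DA points between 0 and 12.1, and the 2 Wistar sections at 1.11 and 2.55.

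Nuclei showed the same order of strains for Itgal. Kupffer-like nuclei, of which there were 60 to 88 per library, had 2 and 4 Itgal UMIs in DA and 37 and 35 in LEW, or 14.7 and 20 CPM against 112 and 110 CPM. The pooled ratio was 6.22, with a counting interval of 2.72 to 17.5. This ratio was below that of TLH Kupffer-like cells, which rests on 2 DA UMIs. DA nuclei were above DA cells, and LEW nuclei below LEW cells. The counting intervals hold no variation between rats, and the difference between the 2 ratios was not tested. The kits differ between the platforms, and their part in this was not tested. Itgal per 100 Itgb2 was 8.70 and 12.1 in DA nuclei and 137 and 184 in LEW nuclei.

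Itgb2 went the other way in these nuclei, without passing the test. It was at 169 and 165 CPM in DA and at 81.7 and 59.6 CPM in LEW, a log2 difference of −1.15 ± 0.35 (SE, n = 2 per strain; edgeR adjusted p = 0.145), with an interval of −1.89 to −0.40. The strain libraries did not overlap. The summed Kupffer markers were lower in LEW as well, at 5856 and 6328 CPM against 11448 and 10794 CPM in DA, and their part in the Itgb2 level was not tested. Of the 2 clusters of this class, the one with the higher Itgb2 had 297 and 326 CPM in DA and 278 and 147 CPM in LEW, with Itgal at 16.5 and 48.2 against 389 and 318 CPM. The other had Itgb2 at 66 and 51.2 CPM in DA and at 43.4 and 29.5 CPM in LEW, with Itgal at 13.2 and 0 against 57.8 and 38 CPM. The strains filled these clusters unequally: the one with the higher Itgb2 held 39 of 60 and 65 of 88 DA nuclei and 30 of 72 and 52 of 88 LEW nuclei, with 60547 of 136264 and 82953 of 200198 UMIs in DA and 53980 of 330627 and 81724 of 318753 UMIs in LEW. In that cluster alone the log2 difference of Itgb2 was −0.53 (interval −1.45 to 0.39, edgeR adjusted p = 0.572), and the part of the cluster mix in the class value was not tested further. Lyz2 myeloid-like nuclei numbered 10 to 15 per library, and the LEW1 nuclei of this class carried B-cell markers at a summed 12337 CPM, so that no weight was put on them. Their Itgal was at 0 and 48.2 CPM in DA and at 246 and 1123 CPM in LEW.

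The immune-enriched libraries came from 1 rat per strain, so they allow no test, and they gave higher Itgal levels than the TLH libraries in the Kupffer-like, Lyz2 myeloid-like and NK-like classes of both strains. The intervals that follow cover counting error only. Itgal was at 19.5 CPM (exact Poisson interval 11.4 to 31.2) in DA and at 343 CPM (315 to 374) in LEW Kupffer-like cells. In Lyz2 myeloid-like cells it was at 35.7 CPM (22.4 to 54) in DA and at 489 CPM (419 to 568) in LEW. In NK-like cells it was at 35.5 CPM (22.3 to 53.8) in DA and at 249 CPM (199 to 308) in LEW. The LEW to DA ratio was 17.6 (10.9 to 30.4) in Kupffer-like, 13.7 (8.77 to 22.5) in Lyz2 myeloid-like and 7.01 (4.34 to 11.8) in NK-like cells. The NK-like class joined 2 clusters, of which the smaller, led by Hist1h2an, Hmgb2 and Top2a, had 8 DA and 9 LEW cells. It held 87864 UMIs beside 531178 in the larger in DA, and 104147 beside 233106 in LEW. The part of this mix in the NK-like values here and below was not tested. In the DA rat, 17 of 96 Kupffer-like cells (17.7%, exact binomial interval 10.7 to 26.8%) held an Itgal UMI, against 0 of 256 hepatocyte-like cells, where the exact interval reaches 1.43% and the floor of 3 counts allows up to 1.17% of cells with a UMI. Their median depths were 10152 and 4868 UMIs. Thinned to 1000 UMIs, 2.08% of the DA and 26.5% of the LEW Kupffer-like cells kept one.

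Lymphoid and dendritic classes showed Itgal in the same order, except for B-like cells. T-like cells had Itgal at 6.66 CPM (1.37 to 19.5) in DA and at 48 CPM (28.5 to 75.9) in LEW, and plasmacytoid dendritic-like cells at 36.2 CPM (18.1 to 64.8) in DA and at 223 CPM (147 to 324) in LEW. B-like cells held 1 Itgal UMI in each strain, so that no difference was detectable at this depth. They held 5 Itgb2 UMIs in each strain as well. Endothelial-like cells held 0 Itgal UMIs in DA and 12 in LEW, at 8.21 CPM, which was below the other LEW classes named here except B-like cells, at 6.69 CPM from their 1 UMI. The mesenchymal-like cells, led by Col3a1, had Itgal at 18.2 CPM in DA and at 165 CPM in LEW beside Itgb2 at 268 and 211 CPM, and the part of leukocyte RNA in these levels was not tested.

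Itgb2 was close between the strains in the same Kupffer-like, Lyz2 myeloid-like and NK-like cells. It was at 452 CPM (409 to 499) in DA and at 436 CPM (404 to 470) in LEW Kupffer-like cells, a ratio of 0.965 (0.851 to 1.09). In Lyz2 myeloid-like cells the ratio was 1.2 (0.997 to 1.45), and in NK-like cells 0.794 (0.624 to 1.01). In T-like cells Itgb2 was lower in LEW, at 40 CPM (22.4 to 66) against 91 CPM (65.3 to 123) in DA, a ratio of 0.440 (0.226 to 0.811). Itgax differed less than Itgal: it was at 51.9 CPM (35.5 to 73.2) in DA and at 83 CPM (55.6 to 119) in LEW Lyz2 myeloid-like cells, a ratio of 1.60 (0.933 to 2.73). In NK-like cells the Itgax ratio was 2.04 (1.17 to 3.57). Both Itgax ratios lay below the counting interval of the Itgal ratio in the same class.

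**Figure D4:**
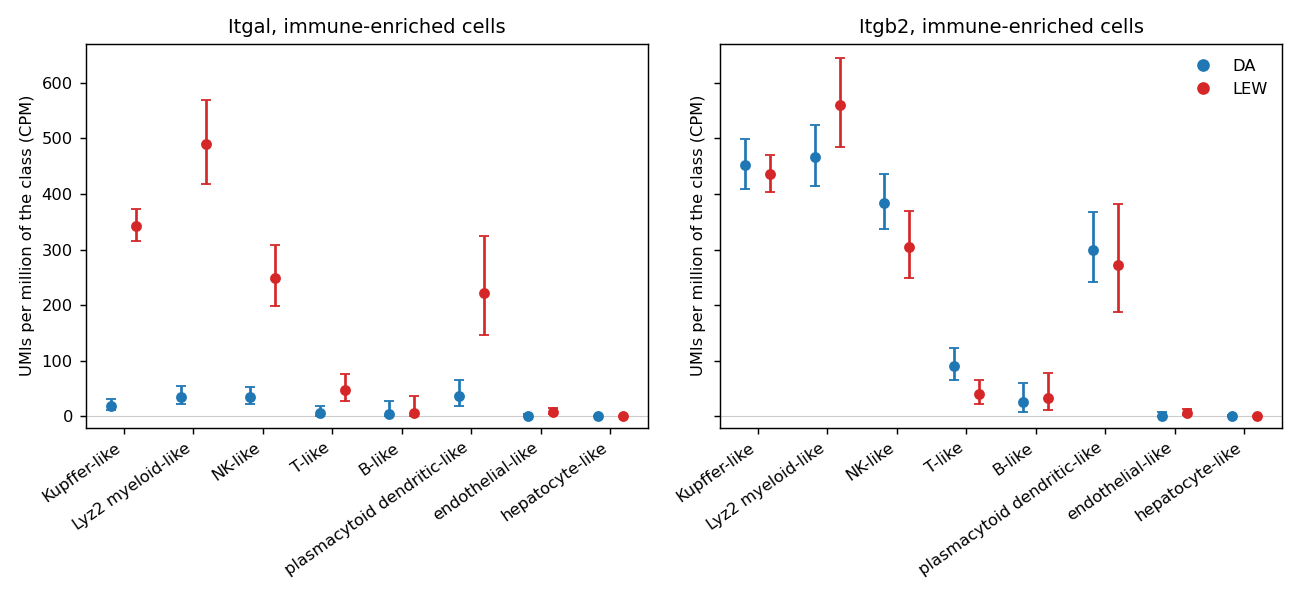
Itgal (left) and Itgb2 (right) in immune-enriched cells of 1 DA rat (blue) and 1 LEW rat (red), as UMIs per 1000000 UMIs of the class (CPM, vertical axis) by cell class (horizontal axis), with exact Poisson 95% intervals as bars. Itgal is higher in LEW in Kupffer-like, Lyz2 myeloid-like, NK-like, T-like and plasmacytoid dendritic-like cells. The Itgb2 intervals of the strains overlap in these classes, but barely in T-like cells (65.3 to 123 CPM in DA and 22.4 to 66 CPM in LEW). Itgb2 in T-like cells is lower in LEW, at a ratio of LEW to DA of 0.440 (0.226 to 0.811).

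The 1057 cells of the immune-enriched clusters richest in Ptprc (CD45), a marker of leukocytes, were also clustered alone, which gave 4 clusters named Lyz2 myeloid-like. They held 116 DA and 82 LEW cells, against 98 and 74 cells in that class before, and so include cells of other classes. That subset also held a mesenchymal-like cluster of 89 cells and a cluster of 82 cells led by Hba-a2, Fgg and Hpx. The highest Itgal level lay in a cluster of 40 DA and 42 LEW cells led by Mal, Lilrb4, S100a4 and Spn. Itgal was at 89.2 CPM in DA and at 942 CPM in LEW there, and Itgb2 was also at its highest, at 1219 CPM in DA and 1002 CPM in LEW. A cluster led by Slpi, Cst3 and Clec10a had Itgal at 12.7 CPM in DA and at 142 CPM in LEW, with Itgb2 at 251 and 254 CPM. The other 2 clusters were small. One of 16 DA and 10 LEW cells, led by S100a9, S100a8 and Retnlg, had Itgal at 70.1 CPM (2 UMIs) in DA and 275 CPM (4 UMIs) in LEW, with Itgb2 at 245 and 137 CPM. One of 16 DA and 8 LEW cells, led by RT1-Db1, RT1-Bb and RT1-Da, had Itgal at 6.03 CPM (1 UMI) in DA and 293 CPM (18 UMIs) in LEW, with Itgb2 at 265 and 211 CPM. The exact Poisson intervals of Itgal lay apart between the strains in 3 of the 4 clusters and overlapped in the one led by S100a9 (8.49 to 253 CPM in DA and 74.8 to 703 CPM in LEW), while those of Itgb2 overlapped in all 4. No test can be given with 1 rat per strain.

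The Visium sections came from a further strain. Wistar sections held 4 and 11 Itgal UMIs in all their spots, beside 359 and 432 Itgb2 UMIs. This is 1.11 and 2.55 Itgal UMIs per 100 Itgb2 UMIs, inside the range of the DA libraries and below that of the LEW libraries. A spot holds several cells, mostly hepatocytes, the chemistry differs from that of the cells, and with no DA or LEW section the strain and the platform cannot be told apart. In the same spots Icam1 gave 1783 and 1958 UMIs, Icam2 416 and 399, and Itgax 17 in each section.

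Of the ligands, Icam2, which is carried constitutively by endothelium, was the one that passed a strain test. In TLH endothelial-like cells it was at 63.3 and 70.1 CPM in DA and at 138 and 114 CPM in LEW, with no overlap. The log2 difference was 0.86 ± 0.18 (SE, n = 2 rats per strain; edgeR adjusted p = 0.024), with an interval of 0.47 to 1.24. The call was lost with DESeq2 (adjusted p = 0.166) and without DA1 (0.0922), LEW1 (0.300) or LEW2 (0.152). In TLH Kupffer-like cells Icam2 was at 38.1 and 52.9 CPM in DA and at 69.9 and 77.8 CPM in LEW, a log2 difference of 0.64 ± 0.21 that missed the threshold (adjusted p = 0.0750). Without DA2 it passed (adjusted p = 0.0150). It was 0.78 in the larger of the 2 Kupffer-like clusters alone (adjusted p = 0.0327) and 0.01 in the smaller (adjusted p = 0.997).

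Nuclei gave the opposite order for Icam2. Endothelial-like nuclei were at 164 and 172 CPM in DA and at 97.6 and 78.2 CPM in LEW, a log2 difference of −0.90 ± 0.32 (edgeR adjusted p = 0.283). Kupffer-like nuclei were at 213 and 155 CPM in DA and at 124 and 113 CPM in LEW, a log2 difference of −0.53 ± 0.35 (adjusted p = 0.508). This direction did not hold in both clusters of the class, which the strains filled unequally: the log2 difference was −0.44 (adjusted p = 0.601) in the cluster with the higher Itgb2 and 0.81 (adjusted p = 0.731) in the other. The difference between the platforms in this strain effect was −1.74 ± 0.34 in endothelial-like cells (adjusted p = 0.0928) and −1.17 ± 0.39 in Kupffer-like cells (adjusted p = 0.118). For endothelial-like cells this test was added after the opposite directions had been seen. It passed without the filter on low counts and with the replicate block by rat, a fit that is doubtful. In the immune-enriched endothelial-like cells Icam2 was at 436 CPM (389 to 488) in DA and at 406 CPM (374 to 441) in LEW, and the intervals overlapped. In the immune-enriched Kupffer-like cells Icam2 was at 210 CPM in DA and at 189 CPM in LEW. The ratio of LEW to DA there was 0.901, with a counting interval of 0.747 to 1.09, so the higher LEW level of TLH was not seen. The endothelial marker list was lower in LEW nuclei, as Icam2 was, at a summed 13302 and 12511 CPM against 17885 and 22084 CPM in DA. In TLH it summed to 9269 and 10162 CPM in DA and to 12180 and 10272 CPM in LEW. There LEW2 lay close to DA2, which Icam2 did not. In Kupffer-like classes the Kupffer marker list moved in the direction of Icam2 on both platforms. It summed to 11448 and 10794 CPM in DA against 5856 and 6328 CPM in LEW nuclei. In TLH it summed to 19326 and 22058 CPM in DA against 38318 and 38850 CPM in LEW. The part of both lists in the Icam2 results was not tested.

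Icam1, the ligand induced by inflammatory signals, did not pass a strain test. In TLH endothelial-like cells it was at 19.8 and 17.2 CPM in DA and at 14.4 and 17.6 CPM in LEW (log2 difference −0.30, interval −0.98 to 0.38, edgeR adjusted p = 0.668). In Kupffer-like cells it was at 19.9 and 26.2 CPM in DA and at 21.3 and 23 CPM in LEW (log2 difference −0.12, interval −0.71 to 0.46, adjusted p = 0.858). Hepatocyte-like cells had Icam1 at 14.7 and 13.2 CPM in DA and at 12 and 11.9 CPM in LEW. In hepatocyte-like nuclei it was at 16.5 and 33.5 CPM in DA and at 34.5 and 47.8 CPM in LEW, a log2 difference of 0.72 (interval 0.02 to 1.43, adjusted p = 0.476).

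**Figure D5:**
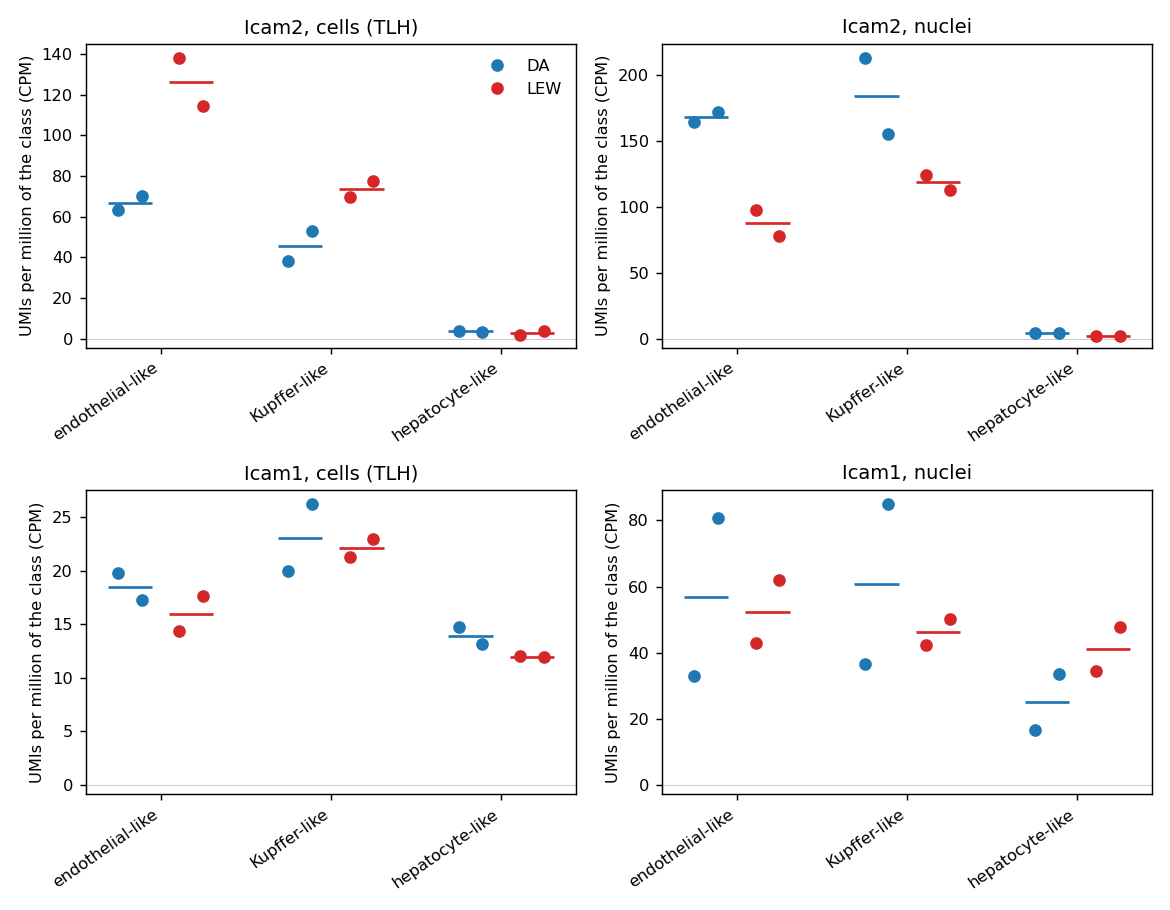
Icam2 (top) and Icam1 (bottom) in TLH cells (left) and nuclei (right), as UMIs per 1000000 UMIs of the class (CPM, vertical axis; each panel has its own scale) in endothelial-like, Kupffer-like and hepatocyte-like classes. Each point is 1 library, DA in blue and LEW in red, and the bar is the mean of 2. Icam2 in endothelial-like cells is higher in LEW in TLH (138 and 114 against 63.3 and 70.1 CPM) and lower in LEW in nuclei (97.6 and 78.2 against 164 and 172 CPM).

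Cells and nuclei were compared with strain in the fit, where 66.8% of all genes passed in Kupffer-like, 71.7% in endothelial-like and 70.4% in hepatocyte-like classes, so that a call there says little about a single gene. Itgb2 was lower in Kupffer-like nuclei than in cells by −1.37 ± 0.27 in log2 (edgeR, n = 4 libraries per platform, adjusted p = 0.000231) after TMM scaling, although its plain CPM in the DA nuclei was not below that of the DA cells. Itgal did not pass in Kupffer-like classes (log2 difference −0.86 ± 0.47, adjusted p = 0.123), and its direction turned with DESeq2 to 0.81. Icam1 was higher in endothelial-like (0.75 ± 0.27, adjusted p = 0.0183) and hepatocyte-like nuclei (0.51 ± 0.21, adjusted p = 0.0454). In hepatocyte-like classes Itgal and Icam2 were lower in nuclei, by −1.35 ± 0.45 and −0.80 ± 0.31 (adjusted p = 0.0154 and 0.0304). The 3 hepatocyte-like calls were all lost without TLH LEW2 or nuclei LEW2, and the endothelial-like call of Icam1 without TLH LEW1, nuclei DA2 or nuclei LEW2. Itgal and Icam2 are at 4.06 CPM or less in every hepatocyte-like library of TLH cells and nuclei.

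The strain effect on Itgb2 in Kupffer-like classes was lower in nuclei than in cells by −1.26 ± 0.38 in log2, which missed the threshold (edgeR adjusted p = 0.0903). Of all genes, 1.85% passed this test of the strain effect between platforms, and 0 of 4 members did. At an unadjusted p under 0.05, 2 members stood, Itgb2 and Icam2, beside 15.5% of all genes, and DESeq2 called 0. In endothelial-like and hepatocyte-like classes 0.0134% and 0.0087% of all genes passed, with 0 of 2 and 0 of 3 members. There 1 member each, Icam2 and Icam1, had an unadjusted p under 0.05, beside 10.3% and 4.21% of all genes, and DESeq2 called 0. Neither test was planned.

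The wider adhesion pathway was read from 31 genes: further ligands, activators that switch beta2 integrins on inside the cell, and other integrin chains. In TLH Kupffer-like cells 16 of the 31 could be tested, of which 1 was higher and 2 were lower in LEW (3.44% and 3.89% of all genes), and the median log2 difference was 0.16 beside −0.004 over all genes tested. Rasgrp2, the exchange factor that loads Rap1 upstream of integrin activation, was at 77 and 83.6 CPM in DA and at 145 and 161 CPM in LEW (log2 difference 0.89 ± 0.18, edgeR adjusted p = 0.00507). Vcam1, a ligand of the Itga4 integrins, was at 26.3 and 29.2 CPM in DA and at 7.67 and 3.53 CPM in LEW (log2 difference −2.32 ± 0.38, adjusted p = 0.00148). F11r, which encodes the LFA-1 ligand JAM-A, was at 58.9 and 60.5 CPM in DA and at 35.8 and 32.7 CPM in LEW (log2 difference −0.83 ± 0.21, adjusted p = 0.0224). It was also lower in LEW hepatocyte-like cells, at 124 and 114 CPM in DA against 76.9 and 69.5 CPM in LEW. The log2 difference there was −0.67 ± 0.13 (edgeR adjusted p = 0.0348), and 1.97% of all genes were lower. These levels exceed those in Kupffer-like cells, which held free hepatocyte RNA, and its part in the Kupffer-like call of F11r was not tested. The Kupffer marker list was higher in LEW in the same Kupffer-like cells, and its part in the Rasgrp2 call was not tested. In Kupffer-like cells the call of Rasgrp2 was lost without LEW2 (adjusted p = 0.0944), and its log2 difference was 0.06 in the smaller Kupffer-like cluster alone. The call of F11r was lost there without LEW1 (0.103) or LEW2 (0.161), with DESeq2 (0.340), with the replicate block (0.0631), without the top Scrublet scores (0.0738), in cells thinned to 1000 UMIs (0.245), with the lower UMI limit for LEW (0.0755) and in the smaller cluster alone (0.645). The call of Vcam1 was lost in cells thinned to 1000 UMIs (log2 difference −1.46, adjusted p = 0.174), and its log2 difference was −2.96 without LEW1 and −1.93 without LEW2. In hepatocyte-like cells the call of F11r was lost without any 1 of the 4 libraries (0.0921 to 0.194) and with the replicate block (0.0929).

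In the other strain comparisons 0 list genes passed in edgeR and 0 in DESeq2, while 12 of the 79 tests had an unadjusted p under 0.05. These were unequally spread, with 7 of 16 in endothelial-like TLH cells (beside 18% of all genes), 4 of 15 in Kupffer-like nuclei (14.8%), 1 of 9 in Lyz2 myeloid-like cells (14.6%), and 0 of 8 in NK-like cells (15.7%), 0 of 12 in endothelial-like nuclei (10.8%) and 0 of 19 in hepatocyte-like nuclei (10.1%). In TLH Kupffer-like and hepatocyte-like cells, where list genes passed, the numbers were 7 of 16 (21.7%) and 5 of 19 (21.2%). Between nuclei and cells, 8 list genes were higher and 8 lower of 21 tested in Kupffer-like classes, 5 and 2 of 15 in endothelial-like classes, and 7 and 7 of 21 in hepatocyte-like classes. Of all genes, 33.9% were higher and 32.9% lower in Kupffer-like, 36% and 35.7% in endothelial-like, and 36.9% and 33.6% in hepatocyte-like nuclei. Among them Itga1, a collagen-binding alpha chain, was higher in nuclei by 2.79, 2.16 and 2.20 in log2, and Rasgrp2 was lower by −1.66, −1.06 and −1.99, in that order of classes. Itgav, an alpha chain that binds matrix proteins, was higher by 3.37 in Kupffer-like and 3.16 in hepatocyte-like nuclei, and Skap2, an adaptor of integrin activation, was lower by −1.38 and −0.94. Kupffer-like nuclei also had lower Itgb5 (−1.53), a partner of Itgav, and lower Rap1a (−1.25), a small GTPase of the Rap1 step. Hepatocyte-like nuclei had higher Icam5 (3.31) and Itga6 (0.75), the latter a laminin-binding chain. Endothelial-like nuclei had higher Fermt3 (1.13), which encodes kindlin-3, and higher Vcam1 (1.48), Cyth1 (0.75) and F11r (0.48). The calls of Cyth1 (adjusted p = 0.0231) and F11r (0.0328) were lost without the filter on low counts (0.172 and 0.281) and with the replicate block by rat (0.0607 and 0.0919), that of Cyth1 with DESeq2 (0.0542), and both without 1 library, TLH LEW1 or nuclei LEW2 among others.

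Genes whose level ran most like Itgal were ranked over the 28 sums of 7 TLH classes in 4 libraries, among 10613 genes. The points share libraries and depth, and the correlation is a description. They include the DA sums, where Itgal was near 0, so the ranking follows the strain gap by which Itgal was chosen. RT1-A1, a class I gene of the rat major histocompatibility complex, came first (Pearson r of log2(CPM + 1) = 0.91), followed by AC108595.1 (0.87), LOC100360791 (0.86), Ybx1-ps3 (0.83) and RT1-CE5, a further class I gene (0.83). RT1-A1 was at 105 and 191 CPM in DA and at 1168 and 1100 CPM in LEW Kupffer-like cells. In LEW it was also high in endothelial-like cells, at 482 and 369 CPM, where Itgal was near 0. LOC100360791 was at 63.1 and 96.3 CPM in LEW Kupffer-like cells and at 68.5 and 93.9 CPM in LEW hepatocyte-like cells. In DA it was at 0.906 CPM or less in both classes. Class I genes have near-identical copies that differ between strains, so their counts are uncertain.

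The genes most like Itgb2 were Tyrobp, the signalling adaptor of myeloid and NK cells (r = 0.90), Hk2 (0.90), Tnfaip8 (0.89), Was, the actin regulator of blood cells (0.88), and Unc119 (0.87). Tyrobp was at 1653 and 1696 CPM in DA and at 2487 and 2666 CPM in LEW Kupffer-like cells, and at 46.6 to 76 CPM in hepatocyte-like cells. Itgal and Itgb2 themselves had r = 0.36 over these 28 sums. This r carries the strain gap of Itgal and does not measure likeness across cell classes alone.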

How the data were processed

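Single cells and nuclei of DA and LEW rat livers and 2 Wistar Visium sections were measured as UMI counts per gene and barcode. The authors deposited these counts unnormalized, made with Cell Ranger 3.1.0 on a custom rat reference (Space Ranger 1.1.0 for Visium, per the submitters' notes). The TLH and immune-enriched matrices carry no gene names, which were taken by row order from the nuclei list. The whole-cell libraries hold 48255870 to 92484173 UMIs and the nuclei libraries 8039397 to 15186970, which in TLH lay mostly in barcodes that were left out. Cells were kept at 1500 (DA1) or 2000 UMIs (DA2, LEW1 and LEW2) in TLH and at 1000 UMIs in the others. The mitochondrial share was at most 30% (DA1), 20% (DA2) and 40% (LEW1 and LEW2) in TLH, 10% in nuclei and 50% in immune-enriched cells. The TLH mitochondrial limit was thus higher in LEW, and its part in the strain differences was not tested. All these limits are those of the study's methods, except that the methods name 1500 UMIs for the LEW TLH libraries. That lower limit was run as an alternative, which added 6667 and 4013 LEW cells and left the number of members called as it was in each of the 5 TLH classes.

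Cells were clustered with sctransform 0.4.2 and Seurat 5.3.0 on 15 principal components, corrected between libraries by a re-implementation of Harmony's method written for this work, with the members and the pathway list left out of the clustering genes. A cluster was named X-like from marker lists when at least 3 of its markers were among its 30 leading genes, and stayed unnamed when markers of another list led its top 10 genes. Clusters left unnamed were called hepatocyte-like when hepatocyte markers led them against the named non-hepatocyte clusters. These names may differ from the study's own. Scrublet marked 1 to 21 cells per library as doublets, so its calls were not used, and leaving out the 6% of cells with the top scores served as an alternative. Libraries of nuclei shared 1 to 6 barcodes per pair.

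Counts were summed per library and class and tested with edgeR 4.0.16 (quasi-likelihood, TMM, its filter on low counts, R 4.3.3) with Benjamini-Hochberg adjustment over all genes tested, as LEW minus DA within a platform, as nuclei minus cells with strain in the fit, and as interactions. The study's mixed model over nuclei was not used here. Of the 5 measured members, Itgal received no strain test and 4 were open to one, 1 fewer than planned, and a member was tested only in classes where it passed the filter. Exact Poisson and binomial intervals (95%) and floors of 3 counts cover counting error only. DESeq2 1.42.0, another scaling, no filter, other clusterings, thinned cells, a replicate block and leaving out each library were tried as alternatives. The edgeR step was tested on simulated data.

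Named genes are all members, the pathway genes that passed a comparison (in each at most the 6 with the smallest p), and the 5 genes most like Itgal and Itgb2. Itgad, of the pathway list, is named beside Itgax outside this rule, after its values were seen. Members and lists were chosen with earlier results of these data known. Whether same-numbered libraries share a litter or day is not given in the sources used here. File names give nuclei and cells the same rat numbers, whereas the study text describes additional rats for nuclei, so the fits with a block by rat are doubtful.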

Additional observations from a re-analysis of the deposited data

Results flagged for a closer look

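Icam2 had a strain difference on opposite sides in cells and nuclei. In Kupffer-like classes the strain effect in nuclei minus that in cells was −1.17 in log2 (edgeR adjusted p = 0.118), and in endothelial-like classes it was −1.74 (adjusted p = 0.0928). Every LEW library lay above every DA library in TLH and below in nuclei in both classes. Icam2 was picked for this order, and the share of all genes with such an order was not counted. Neither main test passed the threshold, and 15.5% and 10.3% of all genes had an unadjusted edgeR p under 0.05 in them. In endothelial-like classes the test passed without the filter on low counts and with the doubtful block by rat. In the cluster of Kupffer-like nuclei with the lower Itgb2, fitted alone, the strain difference of Icam2 was 0.81 in log2 (edgeR adjusted p = 0.731), so the opposite side did not hold in both clusters of that class. In the immune-enriched whole cells the LEW to DA ratio of Icam2 was 0.901 (0.747 to 1.09) in Kupffer-like and 0.932 (0.810 to 1.07) in endothelial-like cells.

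Icam1 in hepatocyte-like classes had LEW below DA in both TLH libraries and above in both nuclei libraries. The difference between the platforms was 0.863 in log2 (interval 0.06 to 1.66). Its unadjusted edgeR p of 0.0369 did not pass the adjustment over all genes (adjusted p = 0.99996). This test was not planned, and Icam1 was picked for the opposite order, so the interval and p give no support of their own.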

How the results depend on the processing

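The cause of the changes below was not tested. Counts of members called, and levels, shares and ratios, were compared between the main setting and each alternative. Of these, 176 stayed the same or close, 11 counts fell, 10 counts rose and 3 values moved beyond their spread. Most counts were small, so this tally says little about direction. Of the log2 differences of single members, 371 kept their direction and side of the threshold. A further 22 lost a call, 10 gained one and 30 turned direction. In TLH Kupffer-like cells the members called rose from 0 to 1 (Icam2) with a crossed replicate block and in the larger cluster alone, both chosen after seeing the data, and ranged from 0 to 1 with 1 library left out. In TLH endothelial-like cells the call (Icam2) fell to 0 with DESeq2 and ranged from 0 to 1 with 1 library left out. Between cells and nuclei, Kupffer-like classes had 2 calls without the filter on low counts and 1 to 2 with 1 library left out. Endothelial-like classes ranged from 0 to 2 and hepatocyte-like classes from 0 to 3. The strain effect between platforms in endothelial-like classes had 1 call (Icam2) without the filter and with a replicate block by rat, and 0 to 1 with 1 library left out. Thinned to 500 UMIs, 6.75% of LEW Kupffer-like TLH cells held Itgal, and 6.43% of DA and 7.26% of LEW cells held Itgb2.

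The same-numbered libraries deviated apart or not together in TLH (correlation −0.15 to −0.016) and in nuclei (0.029 to 0.075). With 2 libraries per strain, these values cannot tell whether same-numbered libraries share a litter or day. With the replicate block, 308 genes passed in TLH Kupffer-like cells instead of 509, 34 instead of 68 in Lyz2 myeloid-like, 10 instead of 64 in NK-like, 441 instead of 218 in endothelial-like and 177 instead of 376 in hepatocyte-like cells. It was 13 instead of 70 in Kupffer-like and 495 instead of 171 in hepatocyte-like nuclei. The crossed replicate block gave 754 in Kupffer-like and 923 in hepatocyte-like TLH cells. DESeq2 gave 193, 35, 40 and 112 in Kupffer-like, Lyz2 myeloid-like, NK-like and endothelial-like TLH cells, 41 in Kupffer-like nuclei, 1 in each test between classes and 11 for hepatocyte-like classes between platforms. Without the filter the strain counts were 786, 121, 124, 509 and 1114 in the 5 TLH classes in the order above and 235, 136 and 452 in Kupffer-like, endothelial-like and hepatocyte-like nuclei, and between platforms 332, 43 and 22 instead of 160, 1 and 1. The block by rat gave 301, 32 and 24 there. Thinned cells gave 174 in Kupffer-like TLH cells, and the lower UMI limit for LEW gave 457 in endothelial-like TLH cells. With 1 library left out the strain counts ranged from 18 (TLH endothelial-like, without LEW1) to 803 (TLH Kupffer-like, without DA1).

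Some directions turned, with values in log2. Itgb2 in TLH turned to −0.042 in the smaller Kupffer-like cluster, to −0.19 in Lyz2 myeloid-like cells at a doubled clustering resolution, and to −0.0027 without the filter and −0.038 without the top Scrublet scores in NK-like cells. In hepatocyte-like nuclei Itgb2 turned to −0.0058 with the replicate block, −0.30 at the doubled resolution and −0.61 in thinned nuclei, and its difference between classes turned to −0.012 with DESeq2 for Lyz2 myeloid-like cells. Icam2 turned to 0.094 in TLH hepatocyte-like cells with a lower limit of 1500 UMIs for LEW and to 0.81 in the cluster of Kupffer-like nuclei with the lower Itgb2. Itgal between platforms in Kupffer-like classes turned to 0.81 with DESeq2. With 1 library left out, Itgb2 ranged from −0.065 to 0.33 in TLH Kupffer-like, −0.37 to 0.55 in Lyz2 myeloid-like and −0.12 to 0.21 in NK-like cells, from −0.45 to 0.41 in hepatocyte-like nuclei, from −0.35 to 0.086 between hepatocyte-like platforms and from −0.65 to 0.59 between Kupffer-like and Lyz2 myeloid-like cells. Icam1 ranged from −0.27 to 0.11 in TLH Kupffer-like cells, from −0.76 to 0.36 in Kupffer-like nuclei and from −0.50 to 0.65 in endothelial-like nuclei. Icam2 ranged from −0.97 to 0.22 in Lyz2 myeloid-like and −1.10 to 0.13 in hepatocyte-like TLH cells, and from −0.89 to 0.30 for hepatocyte-like classes between platforms. A lone library left in an arm is assumed to vary like the others.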
